A study of Ginkgo biloba with 16 samples.

Results

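The transcripts described here lie outside the reference gene models of *Ginkgo biloba* and were added to the gene table under names such as *Novel00997*. There were 2071 of these added transcripts among 43911 rows, 4.72% of the table, and the other 41840 rows carried the Gb_ names of the reference gene models. The members were taken by name alone. The sources used here do not say how they were assembled or from which reads. If they came from reads of these libraries, a row exists only because it was transcribed, and the share expressed would be set in part by that choice.

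Cambium RNA was sequenced from 9 female trees grown at 1 site, 3 in each of 3 age groups, with 1 library per tree. The trees were 15, 20 and 22 y old in VC20, 193, 211 and 236 y in VC200 and 538, 553 and 667 y in VC600. No tree was treated, and the labels separate the groups by age. Ring counts gave the ages of the young trees, and the older ages were estimated from trunk diameter and mean ring width. Cambium was cut as tangential sections from trunk pieces that also held phloem and outermost xylem.

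A draft genome is annotated by predicting genes from sequence and from known proteins, and such predictions can miss transcripts that encode short proteins, carry no protein or lie on small contigs. RNA reads that map outside every predicted gene can be assembled into additional transcripts, which have no curated function until a protein match or an experiment gives one. In trees the vascular cambium is the thin layer of dividing cells that gives rise to phloem on the outside and to xylem, the wood, on the inside. Laccases and class III peroxidases, both of which appear among the added transcripts, oxidise the precursors of lignin in the walls of xylem cells.

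Values are FPKM, fragments per kilobase of transcript and scaled to the total of the library, which divides a level by length. The totals implied by the unit were between 15732412 and 18811771 fragments per library. The markers fixed for cell types were measured in every age group, but the levels of the 4 xylem wall genes (*IRX1* and *IRX3*) summed to between 7.03 and 13.0 FPKM in VC200, against 24.6 to 76.8 in VC20, and the phloem gene *APL* lay between 32.4 and 60.6 FPKM in VC200, against 13.6 to 17.5 in VC20. Of the xylem wall genes, 3 were below VC20 in all VC200 trees, while *Gb_29421*, an *IRX3* match, had 4.10, 6.18 and 6.92 FPKM in VC200, against 2.05, 1.90 and 1.43 FPKM in VC20. The 2 *WOX4* genes of the cambium summed to between 0.450 and 19.5 FPKM in VC200, against 20.2 to 41.7 in VC20, with 1 value at 0 in library VC200C. In VC600 these sums were 12.2 to 48.2, 9.48 to 27.8 and 8.97 to 29.7 FPKM for xylem wall, phloem and cambium. In tissue taken whole, fewer cells of a type and less RNA per cell cannot be told apart. VC200C also stood apart from the rest, with rank correlations of 0.669 to 0.791 to the other 8 libraries over the tested added transcripts, against a lowest value of 0.763 among those 8.

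Over all rows, the added transcripts were longer as listed than the Gb_ models, but the lengths measure different things. Their median length was 1140 bases, against 897 for Gb_ models, and their median span from start to end on the scaffold was 2217 bases, against 1768. Of the Gb_ lengths 85.8% were multiples of 3, as coding lengths are, while 33.6% of the added lengths were, so untranslated sequence can be part of a length in this class. Length equalled span, that is, no intron was listed, in 418 added transcripts (20.2%), against 26.04% of Gb_ models. A span of at least 100000 bases was found for 177 added transcripts (8.55%), against 9.10% of Gb_ models. The strands were balanced, with 1046 on the plus and 1025 on the minus strand.

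The greatest length, 18410 bases in 1 block, belonged to *Novel00991* (scaffold2825, 520039 to 538448, minus strand), with 1.74, 2.51 and 1.36 FPKM in the VC20 trees, 3.63, 5.27 and 0.653 FPKM in the VC200 trees, and 1.04, 3.28 and 3.65 FPKM in the VC600 trees. *Novel00864* (17856 bases) and *Novel02004* (17812 bases) followed, with mean levels of 0.505 and 1.18 FPKM. The greatest span, 434020 bases, was that of *Novel00298* (scaffold12110, 1044200 to 1478219, plus strand), whose listed length was 935 bases. It had 5.41, 2.03 and 0.168 FPKM in the VC20 trees, 54.2, 29.2 and 0.336 FPKM in the VC200 trees, and 0.387, 0 and 0 FPKM in the VC600 trees, so the 3 VC200 trees spread from near 0 to above every other library. *Novel00821* and *Novel00427* spanned 430370 and 422241 bases and stood between 2.42 and 8.41 FPKM in every library.

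The listed length was not the length behind the FPKM value in every row. FPKM times length was a whole number of fragments in all libraries for the 41840 Gb_ models and for 1312 added transcripts (tolerance 0.02), but not for the other 759 added transcripts. For 750 of these a shorter length made every value whole, at a median of 86.7% of the listed length and between 27.2 and 99.95%. In 24 of them a multiple of that length fitted too, and the shortest was used, so their fragments are not unique. No such length was found for 9. These 750 transcripts had a median span of 5029 bases, against 1547 for those whose listed length was the one used. Their FPKM values would be lower if computed from the listed length. With the recovered fragments the table sums to between 99.998 and 100% of the implied totals, and added transcripts held between 5.14 and 6.21% of the fragments of a library.

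Almost all added transcripts lay outside the reference models in position. If the rows were made only from reads outside those models, little overlap would be set by that choice. The span of 11 (0.531%) shared at least 1 base with a Gb_ span on the same scaffold, while 22.8% of the Gb_ models overlapped another Gb_ model. All 11 held a whole Gb_ span within their own, 3 on the same strand, 6 on the opposite strand and 2 on both, and none lay inside a Gb_ span or overlapped one in part. A further 156 had a gap of up to 1000 bases to the nearest Gb_ model, 90 of them on its strand, 312 lay over 1000 and up to 10000 bases away, 787 over 10000 and up to 100000 bases away and 581 farther. The median gap was 45438 bases. Scaffolds with no Gb_ model held 224 added transcripts (10.8%), and contigs not named as scaffolds held 95 (4.59%), against 98 Gb_ models (0.234%).

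**Figure D1:**
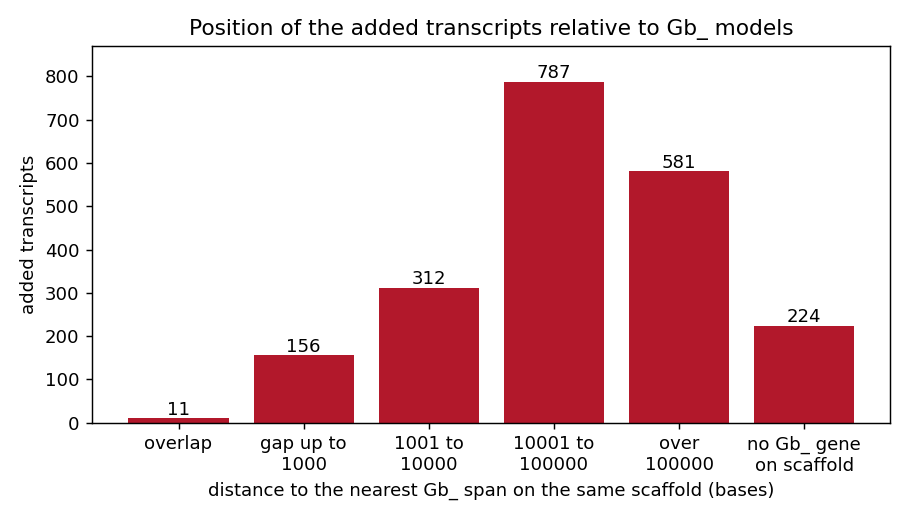
Number of added transcripts (vertical axis) in classes of distance in bases to the nearest Gb_ span on the same scaffold (horizontal axis). The bars hold 11, 156, 312, 787, 581 and 224 transcripts, so overlap is the rarest class and a gap over 10000 and up to 100000 bases the most frequent.

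The overlapping added transcripts were long in span and held Gb_ models that were mostly silent. *Novel00152* (scaffold10372, 255140 to 489557, plus strand), with a best match to a probable aldo-keto reductase, held *Gb_00992* on the opposite strand, and *Gb_00992* was listed at 0 in all 9 libraries. *Novel00789* (scaffold2202, 46457 to 463606, plus strand) had 20.8, 14.02 and 13.9 FPKM in the VC20 trees, 19.8, 20.1 and 9.20 FPKM in the VC200 trees, and 19.3, 20.8 and 19.8 FPKM in the VC600 trees. The model within it, *Gb_14092* on the other strand, was also listed at 0 throughout. *Novel01772* (scaffold7086, 1256184 to 1286691, minus strand) differed from these, as it held *Gb_35181* on its own strand and that model was expressed. *Novel01772* had 33.1, 33.3 and 32.5 FPKM in the VC20 trees, 24.1, 27.2 and 20.5 FPKM in the VC200 trees, and 23.8, 29.4 and 27.7 FPKM in the VC600 trees, and *Gb_35181* averaged 12.2 FPKM over the 9 libraries. Overlap here is of whole spans, as exons are not listed, and whether the counting used strand is not stated. It cannot be told from these values whether *Novel01772* and *Gb_35181* share reads.

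An added transcript close to a Gb_ model tended to follow its level. Over the 9 libraries, the median correlation of log2(FPKM + 1) with the nearest model was 0.47 for 57 pairs within 1000 bases on the same strand and 0.55 for 39 pairs on opposite strands. It was 0.39 for 136 pairs over 1000 and up to 10000 bases apart, 0.25 for 308 pairs up to 100000 bases apart and 0.20 for 240 pairs farther apart. These are descriptions over libraries that share depth and tissue composition, with both members expressed.

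Most added transcripts were expressed. At least 1 FPKM in at least 3 of the 9 libraries was reached by 1543 of 2071 (74.5%), against 20381 Gb_ models (48.7%). In all 9 libraries this limit was met by 909 added transcripts (43.9%), against 39.5% of Gb_ models. Added transcripts were listed above 0 in all 9 libraries in 79.4% of cases, against 52.5% of Gb_ models, and 41 were at 0 in all 9 (1.98%), against 27.5%. Intermediate breadth was more frequent among them, with 36.9% reaching 1 FPKM in 2 to 8 libraries, against 10.6% of Gb_ models. Another 182 reached it in 1 library only, most often in VC200C, with 41. VC200C was also the most frequent single library among the Gb_ models, with 530 of 1266.

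**Figure D2:**
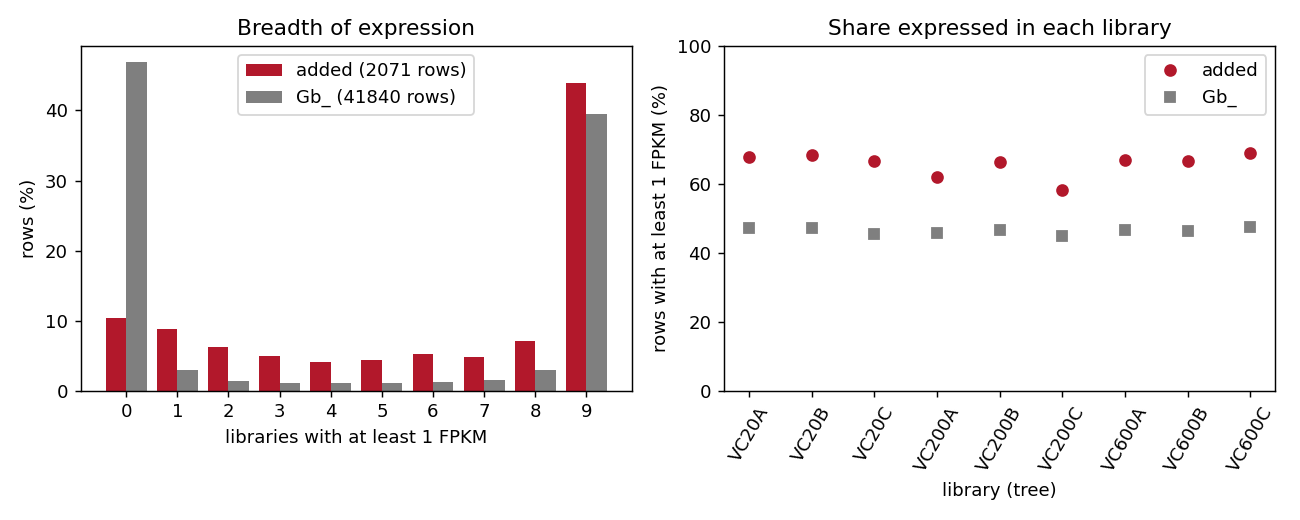
Left, percent of rows (vertical axis) by the number of libraries with at least 1 FPKM (horizontal axis), and right, percent of rows with at least 1 FPKM in each of the 9 libraries. The share of added transcripts lies between 58.2 and 68.8% in every library, in red, above Gb_ models, in grey, at 44.8 to 47.4%, and its lowest values are in VC200.

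Among expressed rows, the level of the added transcripts was below that of the Gb_ models. The median of the mean FPKM was 4.26 for expressed added transcripts and 11.3 for expressed Gb_ models, and at least 100 FPKM was reached by 62 of these added transcripts (4.02%) and 1602 of these Gb_ models (7.86%). Over all rows, expressed or not, the order was the other way round, with medians of 2.41 FPKM for added transcripts and 0.733 FPKM for Gb_ models. In VC200 the share of added transcripts with at least 1 FPKM was 62.0, 66.2 and 58.2%, against 67.9, 68.3 and 66.6% in VC20, and the 2 groups did not overlap (exact two-sided permutation test, p = 0.1, the smallest that 3 trees against 3 allow, adjusted p = 0.45 over 18 comparisons of library measures). In VC600 the share was 66.8, 66.5 and 68.8%. The share of Gb_ models averaged 45.7 ± 0.987% in VC200 and 46.6 ± 0.933% in VC20 (SD, n = 3 each), with overlapping groups (exact p = 0.3, adjusted p = 0.54). The lower level in VC200 was also seen in the median of the expressed added transcripts, which was 3.34, 3.82 and 2.88 FPKM in VC200, against 4.45, 4.41 and 4.16 FPKM in VC20 (exact p = 0.1, adjusted p = 0.45).

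A few transcripts held much of the signal. The 10 highest in a library carried between 42.4 and 54.5% of its fragments of added transcripts. *Novel00997* (scaffold28683, 268852 to 269629, plus strand) was the highest, with 7122, 4186 and 6948 FPKM in the VC20 trees, 4886, 4074 and 13965 FPKM in the VC200 trees, and 8558, 6648 and 6986 FPKM in the VC600 trees. *Novel00998*, on the same scaffold and strand, had 1593, 2595 and 4195 FPKM in the VC20 trees, 2850, 2091 and 45.5 FPKM in the VC200 trees, and 1979, 1053 and 1785 FPKM in the VC600 trees. The 2 transcripts thus went opposite ways in VC200C, where *Novel00997* was at its highest and *Novel00998* at its lowest.

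The scaffold that carries them holds 4 added transcripts on 1 strand and no Gb_ model. *Novel00999* was at 177 to 485 FPKM in the 9 libraries. *Novel01000* (440479 to 441505), with a best match to a defensin precursor of *G. biloba*, defensins being small secreted proteins that act against microbes, varied most within an age group of all tested added transcripts. It had 1.59, 2.71 and 0.625 FPKM in the VC20 trees, 171, 61.5 and 9.58 FPKM in the VC200 trees, and 1177, 2.86 and 144 FPKM in the VC600 trees. Both older groups lay above VC20, but the log2 fold changes, 4.28 in VC200 vs VC20 and 5.12 in VC600 vs VC20, did not pass the test (limma, adjusted p = 0.238 and 0.642).

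Other highly expressed added transcripts had no protein match in the lists used here. *Novel00081* (contig C25948939) had 909, 2195 and 1738 FPKM in the VC20 trees, 4389, 3088 and 2470 FPKM in the VC200 trees, and 1857, 2449 and 1590 FPKM in the VC600 trees. *Novel01813* (scaffold7509, 7012 bases) was at 928 to 3476 FPKM, *Novel00903* (scaffold2526) at 663 to 4134 FPKM and *Novel00023* (contig C22039667, 217 bases) at 101 to 2566 FPKM, with the lowest value in VC20C. *Novel00503* and *Novel00976* were steadier, at 629 to 1053 and 473 to 894 FPKM, and none of these 6 was called in any comparison.

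The steadiest expressed added transcripts had a coefficient of variation below 8% over the 9 trees. *Novel01573* (scaffold5641, 72654 to 162670) had 22.5, 23.7 and 20.8 FPKM in the VC20 trees, 25.9, 22.4 and 22.9 FPKM in the VC200 trees, and 23.4, 23.6 and 21.4 FPKM in the VC600 trees, a coefficient of variation of 6.46%. *Novel01698* and *Novel00297* followed with 7.72 and 7.94%, at mean levels of 541 and 40.5 FPKM. At the other end, *Novel01927* had 44.2, 0.0406 and 0.0876 FPKM in the VC20 trees, 72.5, 190 and 0.350 FPKM in the VC200 trees, and 17.0, 21.9 and 24.98 FPKM in the VC600 trees, and *Novel00025* reached 229 FPKM in VC200C while the other 8 libraries were between 0 and 4.75 FPKM.

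The comparison of VC200 with VC20 asks how cambium at about 200 y differs from young cambium. Of 1543 tested added transcripts, 44 were called, 11 higher and 33 lower (limma, Benjamini-Hochberg adjusted p under 0.05 over all 21924 tested genes, and a log2 fold change of at least 1 in size). That is 2.85% of the added transcripts, against a background of 0.99% over all tested genes and 0.849% of the tested Gb_ models. Higher were 0.713% of the added transcripts and 0.283% of all genes, and lower 2.14 and 0.707%. The median log2 fold change of FPKM + 1 was -0.29 over the tested added transcripts and -0.12 over all genes, and 69.2% of the added transcripts were below 0, against 60.9% of all genes. The groups did not overlap in 101 added transcripts that were higher (6.55%, against 7.43% of all genes) and in 439 that were lower (28.5%, against 21.1%). With quantile normalization, which brings the median of all genes to 0.00, the median was -0.14 and 16 were called higher and 20 lower, a share of 44.4% higher where 11 of 44 were without it.

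The share called was larger among added transcripts than among Gb_ models in each of 5 bins of mean level. Among transcripts with a mean of 5 to 20 FPKM, 12 of 428 added transcripts (2.80%) and 57 of 6791 Gb_ models (0.839%) were called, and with a mean of at least 100 FPKM 3 of 62 (4.84%) and 7 of 1602 (0.437%). The trees of an age also differed more in added transcripts, with a median standard deviation within age groups of 0.39 in log2, against 0.31 in Gb_ models. The difference between the shares called was not tested. By edgeR on recovered fragments 17 added transcripts (1.10%) and 0.265% of Gb_ models were called, and by DESeq2 149 (9.66%) and 4.74%.

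The count of 44 rested on every VC20 library and on VC200A and VC200B. Without VC20A, VC20B or VC200A no added transcript was called, without VC20C 1 was, and without VC200B 4, while 439 had an unadjusted p under 0.05 with all 9 libraries (28.5%, against 20.1% of all genes). Without VC200C, the library that stood apart, 36 were called, 15 higher and 21 lower, and 19 of them were among the 44. Without VC600A the count was 21, although it is in neither group. The Gb_ models lost calls in the same way, from 173 to 8, 3 and 10 without VC20A, VC20B and VC20C. They had 0 calls without VC200A and 17 without VC200B, against 188 without VC200C and 103 without VC600A.

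**Figure D3:**
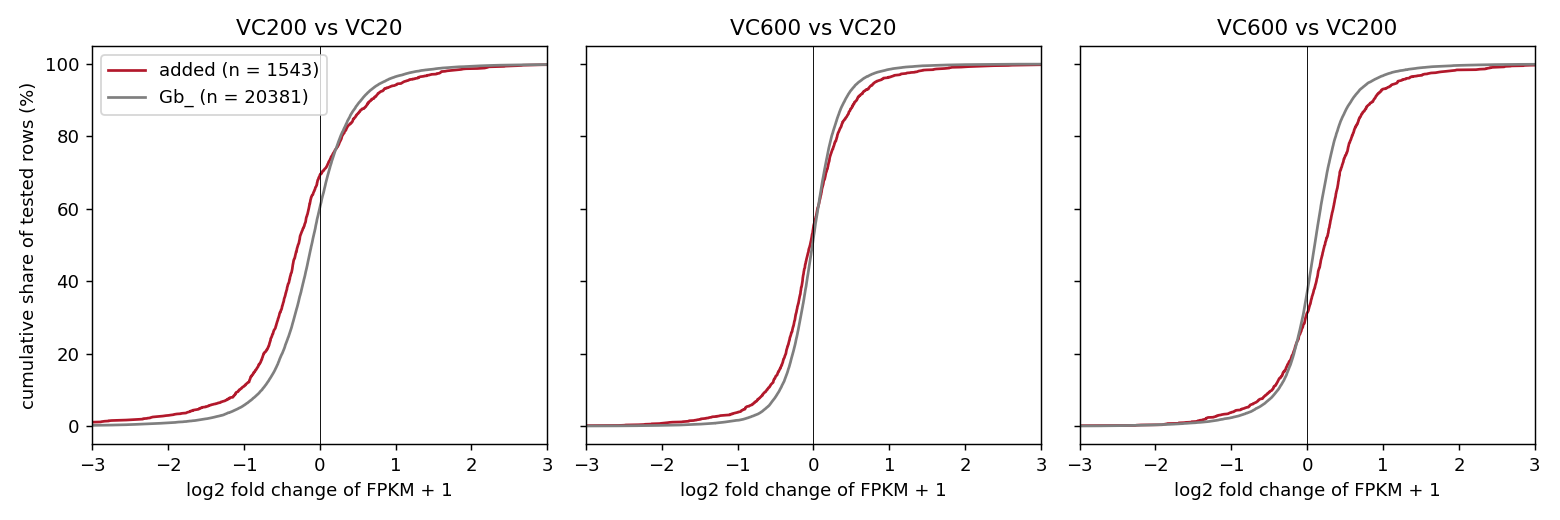
Cumulative percent of tested rows (vertical axis) by log2 fold change of FPKM + 1 (horizontal axis) in each comparison, for 1543 added transcripts in red and 20381 Gb_ models in grey. The line of the added transcripts is shifted to the left in VC200 vs VC20, with a median of -0.29 against -0.11, and to the right in VC600 vs VC200, with 0.23 against 0.10. Both of these use the same VC200 trees. In VC600 vs VC20 the medians are -0.04 and -0.01.

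Among the added transcripts called higher in VC200, *Novel00339* (scaffold1261, 1573258 to 1574231, plus strand) had the largest difference on the log2(FPKM + 1) scale. It had 30.1, 92.4 and 116 FPKM in VC200, against 7.83, 4.11 and 2.51 FPKM in VC20, and 74.8, 30.4 and 32.8 FPKM in VC600. By limma the log2 fold change came to 3.69 ± 0.56 (SE), at an adjusted p of 0.0337, and both older groups lay above VC20. No protein match was listed for it, and the nearest Gb_ model is 523553 bases away.

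*Novel01280* (scaffold403, 28429 to 343952, plus strand), which matches an uncharacterised spruce sequence, had 6.19, 5.70 and 8.04 FPKM in VC200, against 0.230, 0.138 and 0.186 FPKM in VC20. In VC600 it had 0.103, 0.614 and 3.71 FPKM. By limma the log2 fold change came to 2.68 ± 0.46 (SE), at an adjusted p of 0.0426, and it was high in all VC200 trees and in 1 of the VC600 trees.

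A pair of neighbours was called together. *Novel01362* (scaffold4503, 1923203 to 1924913) and *Novel01363* (1925501 to 1926082) lie on the same strand with a gap of under 1000 bases. *Novel01362* had 7.69, 16.1 and 12.02 FPKM in VC200, against 0.975, 1.34 and 1.66 FPKM in VC20, and *Novel01363* had 10.1, 19.5 and 18.9 FPKM in VC200, against 1.03, 2.17 and 4.55 FPKM in VC20. Their log2 fold changes were 2.43 and 2.33 (standard errors 0.34 and 0.39, limma adjusted p = 0.0301 and 0.0426). Whether they belong to 1 transcript was not tested.

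The rise with the smallest p was that of *Novel00438* (scaffold14417, 155379 to 174139, minus strand), with 74.7, 55.8 and 61.7 FPKM in VC200, against 17.1, 16.4 and 20.9 FPKM in VC20, and 30.1, 24.8 and 28.2 FPKM in VC600. The log2 difference between VC200 and VC20 came to 1.76 ± 0.17 (SE), with the smallest adjusted p of the 44 (limma, 0.0126). In VC600 vs VC200 its log2 fold change of -1.17 was not called (limma, adjusted p = 0.135).

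The largest fall on the log2(FPKM + 1) scale was that of *Novel00152*, the aldo-keto reductase match that holds a silent Gb_ model. It had 3.45, 16.9 and 2.81 FPKM in VC200, against 432, 109 and 76.2 FPKM in VC20, and 60.8, 274 and 66.9 FPKM in VC600. By limma the log2 fold change came to -4.52 ± 0.85 (SE), at an adjusted p of 0.0497, and the call was lost in 15 of 17 alternatives, with an adjusted p between 7.58e-06 and 0.159 over them. VC600 overlapped VC20. The other calls were lost in some alternatives too. Of 17, this was so in 3 for *Novel00438*, 9 for *Novel00339*, 11 for *Novel01280* and *Novel00021* and 13 for *Novel01905*.

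*Novel00753* (scaffold21039, 332469 to 333203, plus strand) had 1.70, 1.15 and 0.116 FPKM in VC200, against 27.4, 40.5 and 17.5 FPKM in VC20, a fold change of -3.91 ± 0.60 (SE) in log2 at a limma adjusted p of 0.0344. *Novel01905* (scaffold82675, 169126 to 170203, minus strand) had 0.665, 2.34 and 0 FPKM in VC200, against 19.6, 22.4 and 14.7 FPKM in VC20, and a fold change of -3.47 ± 0.63 (SE) in log2 at a limma adjusted p of 0.0475. *Novel00021* (contig C21969050, 1 to 483), which matches a hypothetical *Citrus* protein, had 0.362, 0 and 0.210 FPKM in VC200, against 7.96, 28.0 and 11.3 FPKM in VC20 (limma: a log2 difference of -3.64 ± 0.66 SE at an adjusted p of 0.0475). In all 3 the VC600 trees lay between 0.865 and 40.8 FPKM and overlapped VC20.

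**Figure D4:**
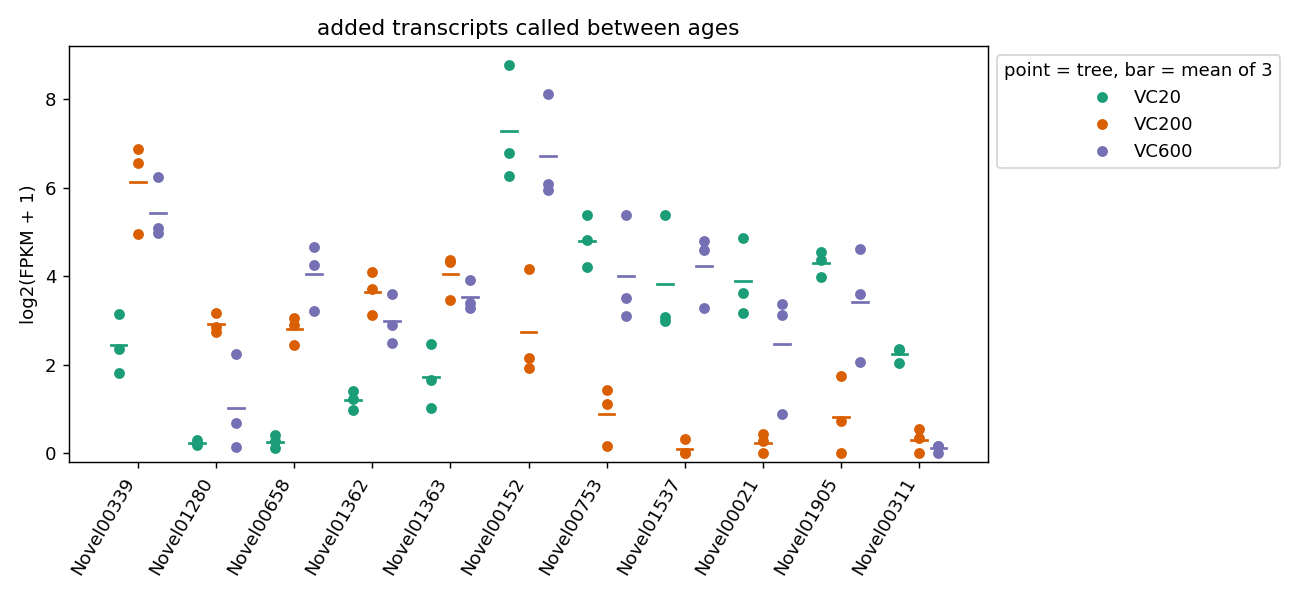
log2(FPKM + 1) (vertical axis) of 11 called added transcripts (horizontal axis) in VC20, VC200 and VC600. Each point is a tree and each bar the mean of 3 trees, with the 5 largest rises of VC200 vs VC20 on this scale on the left, the 5 largest falls after them and *Novel00311* on the right, and VC200 does not overlap VC20 in any of the 11.

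Laccases gave 5 of the 33 calls lower in VC200. Their 9 added members were all taken from the list of transcripts that the study chose as changed on these samples. Neither their direction nor the number called is therefore independent evidence. All 9 were below every VC20 library in all 3 VC200 libraries. For comparison, 21.1% of all tested genes had VC200 below VC20 without overlap. Of the 8 tested, 5 were called lower in VC200 vs VC20, where 0.707% of all tested genes were, with a median log2 fold change of -2.88. Their summed level was 1.93, 2.82 and 0.09996 FPKM in VC200, against 75.01, 128 and 36.2 FPKM in VC20, and 59.6, 58.9 and 52.1 FPKM in VC600.

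*Novel01537* (scaffold5442, 1433820 to 1436316, plus strand), closest to a laccase of loblolly pine, had 0, 0.259 and 0 FPKM in VC200, against 6.88, 40.6 and 7.45 FPKM in VC20, and 23.0, 8.67 and 26.9 FPKM in VC600. By limma the log2 fold change came to -3.70 ± 0.64 (SE), at an adjusted p of 0.0441. *Novel01787* (scaffold7224, 346607 to 349274) had 1.03, 1.32 and 0.0305 FPKM in VC200, against 23.8, 24.3 and 7.56 FPKM in VC20 (limma: a log2 difference of -3.37 ± 0.64 SE at an adjusted p of 0.0497). *Novel00066* (contig C24767092, 5 to 1864) had 0, 0.0710 and 0.0394 FPKM in VC200, against 8.38, 18.1 and 6.89 FPKM in VC20 (limma: a log2 difference of -3.44 ± 0.45 SE at an adjusted p of 0.0289). In each of the 3 every VC200 tree was below every VC20 tree and VC600 overlapped VC20.

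*Novel01705* and *Novel01534* were the other called laccases, with log2 fold changes of -2.33 and -2.38 (limma adjusted p = 0.0302 and 0.0475). *Novel01091* had 0.786, 0.849 and 0 FPKM in VC200, against 27.9, 21.5 and 6.75 FPKM in VC20, and was not called (limma: a log2 difference of -3.53 ± 0.91 SE at an adjusted p of 0.0931). In VC600 it had 3.93, 14.8 and 0 FPKM. In VC600 vs VC20 none of the 8 was called, with 4 log2 fold changes above 0 and 4 below and a median of -0.12 (smallest limma adjusted p = 0.739, and 0 at an unadjusted p under 0.05). In VC600 the summed xylem wall markers lay between 12.2 and 48.2 FPKM and the laccase sum between 52.1 and 59.6 FPKM, and the part of these markers in the laccase result was not tested.

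**Figure D5:**
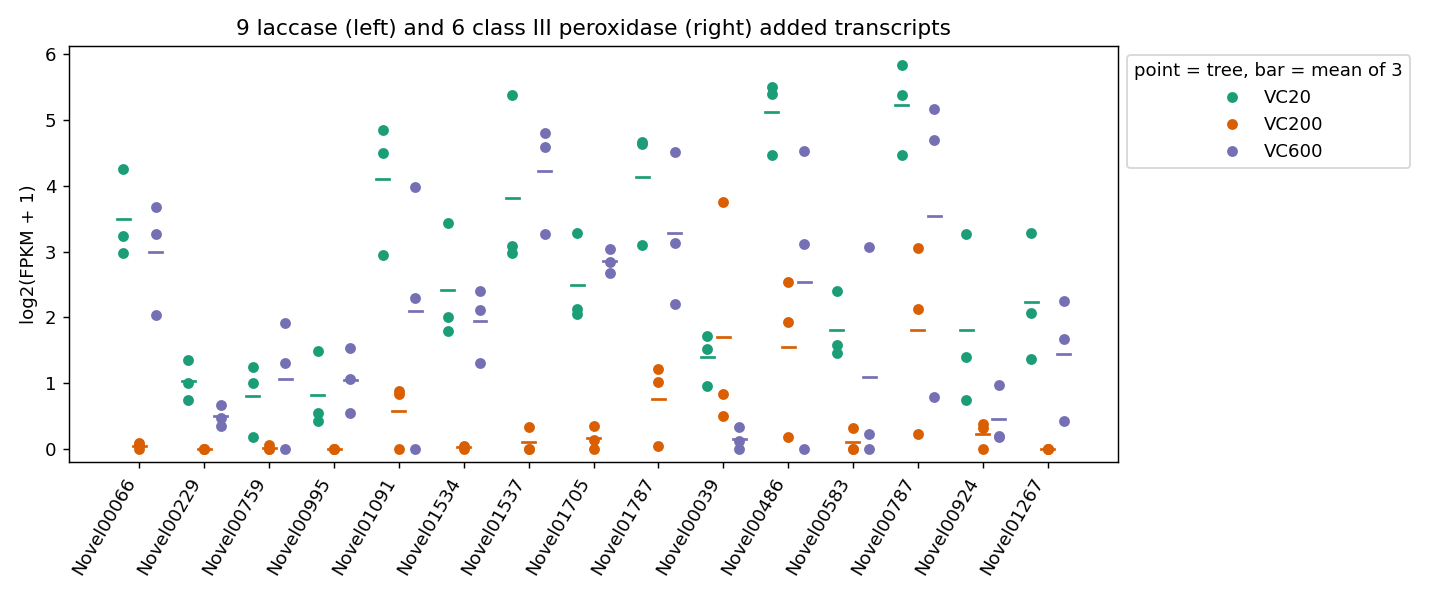
log2(FPKM + 1) (vertical axis) of the 9 laccase added transcripts, on the left, and the 6 class III peroxidase ones, on the right (horizontal axis), in VC20, VC200 and VC600, with a point for each tree and a bar for the mean of 3. All 9 laccases have every VC200 point below every VC20 point, as do 5 of the 6 peroxidases.

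Class III peroxidases, secreted enzymes that use hydrogen peroxide, had 6 added members from the same list of changed transcripts. VC200 lay below VC20 in 5 of the 6, as in 21.1% of all tested genes, and none of the 5 tested was called, where 0.707% of all tested genes were called lower (smallest limma adjusted p = 0.0826). An unadjusted p under 0.05 was found for 4 of the 5, and for 20.1% of all tested genes. *Novel00486* (scaffold15225, 2657011 to 2658637, plus strand), for which the study designed qRT-PCR primers, had 2.83, 4.78 and 0.135 FPKM in VC200, against 44.1, 40.8 and 21.1 FPKM in VC20, and 22.0, 7.65 and 0 FPKM in VC600. *Novel00787*, a second match to a *G. biloba* secretory peroxidase, had 3.38, 7.27 and 0.173 FPKM in VC200, against 56.0, 40.8 and 21.2 FPKM in VC20. The log2 fold changes of these 2 were -3.57 and -3.43 (limma adjusted p = 0.124 and 0.154). *Novel00039* (contig C23562443) differed from its family, with 0.790, 0.413 and 12.6 FPKM in VC200, against 1.86, 0.935 and 2.29 FPKM in VC20, and its high value came from VC200C alone.

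The other transcripts for which primers had been designed were *Novel00943* and *Novel01406*. *Novel00943* had 0.351, 0.367 and 0.0370 FPKM in VC200, against 3.95, 5.01 and 1.74 FPKM in VC20 (log2 fold change -1.80, limma adjusted p = 0.0784), and 3.28, 2.33 and 0.465 FPKM in VC600. *Novel01406* was below the limit for testing, with 0.0414, 0.259 and 0 FPKM in VC200, against 2.12, 1.78 and 0.816 FPKM in VC20.

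Copper proteins carry electrons or copper ions, and 2 of their 3 added members, also from the list of changed transcripts, were called in opposite directions. Of all tested genes 0.283% were called higher in VC200 vs VC20 and 0.707% lower. *Novel00665* (scaffold19109, 72400 to 73995), a copper transport protein match, had 0.671, 0.964 and 0.146 FPKM in VC200, against 26.1, 15.4 and 8.66 FPKM in VC20 (limma: a log2 difference of -3.39 ± 0.54 SE at an adjusted p of 0.0370). *Novel01909* (scaffold8307, 1022711 to 1023552), a blue copper protein match, had 1.21, 2.28 and 1.40 FPKM in VC200 and was listed at 0 in all 3 VC20 and all 3 VC600 libraries. It had 61 fragments in VC200 and 0 in VC20, a level at least 20.0-fold higher against a floor of 3 fragments over the group (limma adjusted p = 0.0289 in VC200 vs VC20). *Novel01909* entered the test through VC200 alone. *Novel01223*, the third, had a log2 fold change of -1.49 and was not called (limma adjusted p = 0.146).

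Gibberellin 3-oxidases, abbreviated GA3ox, make the last step to bioactive gibberellins, which promote growth. Both added matches to GA3ox1 of Chinese pine were almost silent in young cambium. *Novel00609* (scaffold17978, 114627 to 115778, minus strand) was listed at 0 in all 3 VC20 libraries and had 2.45, 3.45 and 2.23 FPKM in VC200 and 8.10, 2.68 and 9.09 FPKM in VC600. Against a floor of 3 fragments over VC20 it was at least 47.1-fold higher in VC200 and at least 116-fold higher in VC600, but it did not pass the test (limma adjusted p = 0.0518 and 0.0769). *Novel00034* (contig C23229232, 1 to 776) had 2.82, 2.06 and 1.39 FPKM in VC200 and 4.49, 2.97 and 5.86 FPKM in VC600, against 0, 0 and 0.0993 FPKM in VC20. It was called in the first comparison, VC200 vs VC20 (limma: a log2 difference of 1.56 ± 0.26 SE at an adjusted p of 0.0399) and not in VC600 vs VC20 (log2 fold change 2.36, adjusted p = 0.0598). These transcripts share a best match, so reads of one could be counted for the other.

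*Novel01686*, which matches a methylesterase, an enzyme family that frees hormones from their methyl esters, had 0.0938, 0.588 and 0 FPKM in VC200, against 5.67, 5.91 and 2.83 FPKM in VC20 (limma: a log2 difference of -2.22 ± 0.41 SE at an adjusted p of 0.0483). *Novel00093*, a match to an auxin-conjugating GH3 enzyme, was below the limit for testing, at 0.427, 1.34 and 1.65 FPKM in VC200, against 0.146, 0 and 0 FPKM in VC20. All 4 hormone transcripts came from the list of changed transcripts. Of the 3 tested, 1 was called higher and 1 lower in VC200 vs VC20, where 0.283 and 0.707% of all tested genes were.

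Cell wall transcripts, also from that list, were lower in VC200 than in every VC20 tree for all 5 members, as were 21.1% of all tested genes, and 1 of the 4 tested was called, against 0.707% of all genes called lower. *Novel00417* (scaffold1395, 3387946 to 3388945), which matches an arabinogalactan peptide, a short sugar-coated protein of the cell surface, had 0.612, 0 and 0.0710 FPKM in VC200, against 3.95, 12.5 and 9.29 FPKM in VC20 (limma: a log2 difference of -2.88 ± 0.36 SE at an adjusted p of 0.0289). It was listed at 0 in all 3 VC600 libraries, at least 123-fold lower than in VC20 by the same floor (limma adjusted p = 0.0693). *Novel00417* entered the test through VC20 alone. *Novel01751*, a second arabinogalactan peptide, and *Novel00870* and *Novel00131* had log2 fold changes of -1.56, -1.45 and -1.60 and were not called (limma adjusted p = 0.0778, 0.129 and 0.142).

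Defence transcripts, also from the list of changed transcripts, gave values in both directions. Of 6 tested, 1 was called lower in VC200 vs VC20, where 0.707% of all tested genes were. This was the thaumatin-like *Novel01670* (scaffold6142, 2015356 to 2016466), with 0 FPKM in all 3 VC200 libraries, against 2.82, 8.21 and 2.63 FPKM in VC20, and 3.47, 1.49 and 3.27 FPKM in VC600. It was at least 79.4-fold lower in VC200 than in VC20 (limma adjusted p = 0.0383). *Novel00304*, a match to a wound-induced protein, had 27.7, 15.7 and 23.3 FPKM in VC200, against 2.14, 3.04 and 8.18 FPKM in VC20 (log2 fold change 2.21, limma adjusted p = 0.0694). *Novel00006* (contig C20420465, 220 bases), a chitinase match, chitinases being enzymes that break fungal walls, had 793, 1238 and 352 FPKM in VC200, against 262, 375 and 208 FPKM in VC20, with overlapping groups (limma adjusted p = 0.141). *Novel01732*, a match to an MLO-like membrane protein, had 61.7, 53.8 and 9.48 FPKM in VC200, against 45.5, 61.8 and 59.2 FPKM in VC20.

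Receptors with leucine-rich repeats (LRR) detect microbes inside the cell, as TIR-NBS-LRR proteins do, or at its surface. The study lists 23 added transcripts of this kind, and unlike the preceding lists that one was not chosen for change. Of these, 13 were expressed and none was called in any comparison (limma, with 3, 2 and 2 at an unadjusted p under 0.05 in the comparisons of VC200 and of VC600 with VC20 and in VC600 vs VC200). Of all tested genes 20.1, 6.78 and 10.2% had such a p in the same comparisons, and 0.99, 0.00912 and 0.00456% were called. Their median was 0.14 in log2 for VC200 against VC20, with 7 above 0 and 6 below, and -0.43 in VC600 vs VC20, with 3 above and 10 below. Over all tested genes these medians were -0.12 and -0.02. The summed level was 99.5, 91.6 and 144 FPKM in VC200 and 75.6, 87.8 and 69.6 FPKM in VC600, against 105, 98.8 and 119 FPKM in VC20.

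*Novel00786* (scaffold2189, 104336 to 107186), a TIR-NBS-LRR match, was the most expressed of them, with 41.3, 26.5 and 32.1 FPKM in the VC20 trees, 35.9, 34.1 and 15.7 FPKM in the VC200 trees, and 38.9, 19.9 and 17.7 FPKM in the VC600 trees. *Novel00302* had 14.6, 16.5 and 23.1 FPKM in the VC20 trees, 16.05, 15.8 and 55.8 FPKM in the VC200 trees, and 16.5, 19.1 and 18.9 FPKM in the VC600 trees, and *Novel00973* 6.90, 6.46 and 7.53 FPKM in the VC20 trees, 5.50, 4.33 and 25.9 FPKM in the VC200 trees, and 2.42, 11.04 and 4.69 FPKM in the VC600 trees. In both the highest value was that of VC200C. *Novel00930* was at 3.31 to 11.6 FPKM in the 9 libraries. The smallest adjusted p of the list was that of *Novel01931*, with 3.29, 3.35 and 5.25 FPKM in VC200, against 0.937, 1.16 and 1.56 FPKM in VC20 (limma, 0.0667).

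Polyproteins of retrotransposons, mobile elements that copy themselves through RNA, were matched by 6 added transcripts, and 4 were tested. They too came from the list of changed transcripts, so their direction is not independent evidence. *Novel01793* (scaffold7257, 1476843 to 1478857), a reverse transcriptase match, was called higher (background 0.283%), with 2.11, 1.87 and 1.498 FPKM in VC200, against 0.420, 0.253 and 0.272 FPKM in VC20 (limma: a log2 difference of 1.10 ± 0.18 SE at an adjusted p of 0.0412). In VC600 it had 1.35, 2.07 and 1.45 FPKM, also above every VC20 tree, and was not called (adjusted p = 0.199). The other 3 had log2 fold changes below 0, and VC200 lay below VC20 in each, as in 21.1% of all tested genes. *Novel00154* had 0.0641, 0.167 and 0.112 FPKM in VC200, against 6.27, 1.55 and 0.892 FPKM in VC20, and *Novel00692* 0.259, 0.968 and 0.215 FPKM in VC200, against 2.01, 1.84 and 1.98 FPKM in VC20. *Novel01707* was highest in VC600, with 2.15, 0.482 and 5.47 FPKM in VC600, against 0.0916, 0.144 and 0.259 FPKM in VC20, and was not tested. These rows can share reads with other copies of the same element, so their levels are uncertain.

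Transcription factor matches, also from the list of changed transcripts, were few and none was called, where 0.99% of all tested genes were in VC200 vs VC20. *Novel01591*, a match to a basic helix-loop-helix factor named for aborted microspores in *Arabidopsis*, had 31.1, 18.9 and 21.5 FPKM in VC600, against 4.49, 7.44 and 10.6 FPKM in VC20, and 17.7, 2.70 and 2.45 FPKM in VC200. *Novel01394*, a small MYB-like match, had 0.0643, 0.672 and 0 FPKM in VC200, against 3.29, 2.63 and 3.21 FPKM in VC20 (limma adjusted p = 0.0747). *Novel01247*, a MYB4 match, had 0, 0.0579 and 0.0322 FPKM in VC200, against 0.993, 2.09 and 0.643 FPKM in VC20, and *Novel00755*, a MYB3 match, was too low to be tested. From the same list, *Novel00244*, which matches a pinoresinol-lariciresinol reductase of lignan synthesis, had 0.0685, 0.501 and 0 FPKM in VC200, against 2.67, 3.54 and 1.59 FPKM in VC20 (limma adjusted p = 0.0849).

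In VC600 vs VC20, 2 added transcripts were called of 1543, 1 higher and 1 lower, and they were the only calls among all tested genes (limma, 0.00912% of 21924, and 0.00456% in each direction). This comparison uses the same VC20 trees as VC200 vs VC20. The median log2 fold change was -0.04 over the added transcripts and -0.02 over all genes, and 148 added transcripts (9.59%) had an unadjusted p under 0.05, against 6.78% of all genes. Of these, 72 were higher (background 3.26%) and 76 lower (background 3.52%). The groups did not overlap in 115 that were higher, where all genes gave 7.28%, and in 152 that were lower, where all genes gave 8.82%. Below 0 were 55.1% of the added transcripts and 52.2% of all genes. *Novel00658* (scaffold1902, 1125971 to 1131532, minus strand), which matches an uncharacterised melon protein, had 8.24, 24.4 and 17.95 FPKM in VC600 and 7.26, 6.50 and 4.47 FPKM in VC200, against 0.0821, 0.216 and 0.326 FPKM in VC20. Its log2 fold changes were 3.77 in VC600 vs VC20 and 2.53 in VC200 vs VC20, each ± 0.36 SE (limma adjusted p = 0.0302 and 0.0305).

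*Novel00311* (scaffold1225, 2074846 to 2075348, minus strand), with no protein match and a length of 453 bases, had 0.126, 0 and 0.132 FPKM in VC600 and 0.469, 0 and 0.272 FPKM in VC200, against 4.08, 4.04 and 3.13 FPKM in VC20. The log2 fold changes were -2.13 in VC600 vs VC20 and -1.94 in VC200 vs VC20, each ± 0.20 SE (limma adjusted p = 0.0302 and 0.0132). Both transcripts were thus apart from VC20 in all 6 older trees. *Novel00311* reached 1 FPKM in VC20 alone, so it entered the test through the group where it is high. Its direction is not independent evidence. No added transcript was called in VC600 vs VC20 without VC20A, VC20B, VC20C, VC200A, VC200B or VC600C, without VC600A 1 was, and without VC200C 8 were, 5 higher and 3 lower. The 8 were 0.526% of the added transcripts tested, against 0.0642% of Gb_ models called without VC200C. By edgeR on recovered fragments 1 was called and no Gb_ model, and by DESeq2 30 (1.94%), against 0.692% of Gb_ models.

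In VC600 vs VC200 no added transcript was called, and 1 of all tested genes was (limma, 0.00456%). This comparison uses the same VC200 trees as VC200 vs VC20, so low values in VC200 enter both. At an unadjusted p under 0.05 there were 292 added transcripts (18.9%), against 10.2% of all genes, with 249 higher in VC600 (background 7.98%) and 43 lower (background 2.18%). The median log2 fold change was 0.23 over added transcripts and 0.11 over all genes, or 0.11 over added transcripts with quantile normalization. With edgeR on the recovered fragments 0 were called, and by DESeq2 69 (4.47%), against 1.40% of Gb_ models. The 3 smallest p among the higher ones were those of the laccases *Novel01705* and *Novel00066* and of *Novel00883*. *Novel01705* (scaffold645, 880047 to 883086) had 7.19, 6.17 and 5.41 FPKM in VC600, against 0.0974, 0.280 and 0 FPKM in VC200 (log2 fold change 2.69, limma adjusted p = 0.0960). *Novel00066* had 8.61, 3.09 and 11.7 FPKM in VC600 (log2 fold change 2.94, adjusted p = 0.151). Among the lower ones *Novel01909* and *Novel00438*, described above, had an adjusted p of 0.108 and 0.135, and *Novel00500* one of 0.199.

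Some added transcripts were at 0 in 1 whole age group and at 1 FPKM or more in every tree of another. There were 2 for each of the 6 ordered pairs of age groups (0.0966% of the 2071), against 0 to 5 Gb_ models (at most 0.0120% of 41840). *Novel00883* (scaffold2476, 78248 to 79445, plus strand), which matches a hypothetical peach protein, had 1.28, 1.01 and 1.59 FPKM in VC600 and was listed at 0 in the other 6 libraries. With 78 fragments in VC600 it was at least 27.5-fold higher than in VC200 and at least 27.0-fold higher than in VC20, and it was not called (limma adjusted p = 0.108 and 0.0769). No Gb_ model was at 0 in all VC20 libraries and at 1 FPKM in all VC600 libraries. *Novel01692* (scaffold63226, 15 to 892) was at 0 in all 3 VC600 libraries and 0, 0.0860 and 0.573 FPKM in VC200, against 2.44, 1.59 and 1.91 FPKM in VC20, and was called lower in VC200 vs VC20 (log2 fold change -1.31, limma adjusted p = 0.0387). *Novel00174* (scaffold10589, 856011 to 950335) was listed at 0 in all 3 VC600 libraries, against 3.86, 3.58 and 3.29 FPKM in VC200 and 0, 4.55 and 9.97 FPKM in VC20. *Novel01267*, a peroxidase, completes the set, with 0 in all 3 VC200 libraries, against 3.18, 8.77 and 1.58 FPKM in VC20. *Novel00883* and *Novel01692* reached 1 FPKM in 1 age group only, so they entered the test through the group where they are high. Each group is 3 trees, so age and other differences between these trees cannot be told apart.

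The deposited list of predicted miRNA targets holds 3078 genes, and none of them is an added transcript. Small RNA counts cover 632 miRNA entries in 6 libraries, and miRNA control of added transcripts was not analysed here.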

How the data were processed

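RNA-seq was analysed for 9 cambium libraries, 3 trees in each of VC20, VC200 and VC600, with groups from the labels. The authors deposited FPKM values per gene with scaffold, strand, start, end and length, and raw miRNA read counts in 6 libraries, which served here only to count entries. Their processing notes name TopHat2 2.0.12 and Cufflinks 2.1.1, while the methods name HISAT, and the sources used here do not say how the added rows were assembled. Protein matches are the study's.

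Testing covered the 21924 genes (1543 added transcripts) that reached 1 FPKM in 3 or more libraries. It used limma 3.58.1 under R 4.3.3, with a mean-variance trend, on log2(FPKM + 1) of all 9 libraries together, with Benjamini-Hochberg adjustment over all of them. A pseudocount of 1 understates the change of low transcripts. A row that reached 1 FPKM in 1 age group only was tested only through the group where it is high. The direction of such a row was set in part by the filter. Fragments were recovered from FPKM times length, and edgeR 4.0.16 and DESeq2 1.42.0 were run on them as alternatives. The use of a shorter length for 750 added rows was chosen after seeing the data. The tests were checked on simulated counts. Calculations used Python 3.11.15, pandas 2.3.3 and matplotlib 3.10.9.

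Trees are separate, so p values measure the spread between trees. Floors cover counting error only. The members and lists were chosen with earlier results of these data known. Transcripts are named by rule: for each comparison up to 5 called rises and 5 called falls of largest fold change without overlap (or 3 of smallest p in each direction where none was called), up to 4 of highest mean level in each list, the 8 of highest mean level, the 3 of greatest length, span, steadiness and range within an age, the 3 overlapping ones of highest level and those with primers. Other names were added after their values were seen. No sequence is printed here.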

Additional observations from a re-analysis of the deposited data

How the results depend on the processing

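Of the 1273 values of 77 named fold changes under the alternatives, 785 stayed on their side of the threshold, 450 no longer passed it, 38 newly passed it and 0 turned round. Only the 44 calls of VC200 vs VC20 and the 2 of VC600 vs VC20 could stop passing. The 785 therefore include values that passed neither before nor after. In VC200 vs VC20 a call was lost in between 3 (*Novel00438*) and 15 (*Novel00152*) alternatives. Both calls of VC600 vs VC20 were lost in 9, of 17 alternatives for *Novel00658* and of 14 for *Novel00311*. When a VC20 library was left out, *Novel00311* fell below the limit for testing. The number of added transcripts called in VC200 vs VC20 was 44, and it was 18 without a filter on low values, 12 with only the 2 groups compared, 17 by edgeR and 149 by DESeq2 on recovered fragments. Leaving out 1 library gave between 0 and 36. In VC600 vs VC20, where 2 were called, these settings gave 2, 0, 1 and 30, and leaving out 1 library between 0 and 8. In VC600 vs VC200, where 0 were called, they gave 1, 2, 0 and 69, a pseudocount of 0.1 gave 3, and leaving out 1 library between 0 and 2. The cause of these differences was not tested, except that no filter adds genes to the adjustment and fewer libraries leave fewer degrees of freedom. The share called was above that of Gb_ models in 15 of 18 alternatives for VC200 vs VC20, and not without VC20A, VC20B or VC200A. In VC600 vs VC20 it was above in 10 and below in 3. In VC600 vs VC200 it was above in 6 and below in 8. Quantile normalization moved the median log2 fold change of added transcripts to -0.14 in VC200 vs VC20 and to 0.11 in VC600 vs VC200, and leaving out 1 library gave -0.34 to -0.24 and 0.17 to 0.28. The letters A, B and C do not pair trees, with correlations of same-letter deviations between -0.245 and 0.277, and with a replicate block 13, 0 and 0 were called in the 3 comparisons. The share expressed was 94.3% at 0.1 FPKM, 37.8% at 5 FPKM, 89.6% for at least 1 library and 43.9% for all 9. The median level over all added rows was 2.41 FPKM. The median length and span of expressed added rows were 1115 and 2495 bases, against 1146 and 2834 for expressed Gb_ models. Requiring most of the span to be covered gave 1 overlapping transcript, and counting gaps of up to 1000 bases gave 167.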
